A study of Mus musculus with 7 samples.

Results

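Glycine tRNAs, the adaptors that carry glycine to the ribosome, were described here across oligodendrocyte progenitor cells (OPC), oligodendrocytes (OL) and astrocytes (Astro). The members were chosen by the amino acid in their names, with no measured value in the rule. They were the 3 anticodon pools Gly-GCC, Gly-CCC and Gly-TCC of 52 listed anticodons, and all 10 glycine isodecoders of 217 listed cytosolic isodecoders. An isodecoder is a tRNA that shares its anticodon with others but differs from them elsewhere in its sequence, and identical genes were counted as 1 isodecoder. Gly-GCC held 4 isodecoders, Gly-CCC held 4, and Gly-TCC held 1. The last was Gly-ACC-1, whose pool is not among the 3 described.

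The libraries were made by QuantM-seq, a tRNA sequencing method with adapters ligated to deacylated total RNA, from 3 OPC, 2 OL and 2 Astro cultures, given as biological replicates. The OPCs came from mouse epiblast stem cells of male 129S/SvEv embryos and were kept in medium with bFGF and PDGFA. OLs were made from 2 of the OPC replicates, after 2 passages without bFGF. Their medium held the thyroid hormone T3 together with noggin, IGF1, cyclic AMP and NT3 for about 3 days. The study describes a population that stays undifferentiated. Astro libraries came from the same OPCs after 3 days in another medium with BMP4, CNTF, bFGF and Hb-EGF. All groups were unmodified by any allele or knockdown, all were grown in culture, and all derive from the same stem cell source. The tables hold no mRNAs, so the cell type labels could not be checked against markers.

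Levels are given as RPM, reads per 1000000 reads assigned to cytosolic and mitochondrial tRNAs. Between 1339021 and 2627351 such reads lay behind each library, and 3 reads were worth 2.24 RPM in the shallowest and 1.14 RPM in the deepest. Of all assigned reads, 4.98% to 6.94% in OPC, 3.55% and 3.90% in OL, and 7.74% and 7.88% in Astro fell outside the cytosolic tRNAs. In these bulk libraries fewer cells of a type and less RNA per cell cannot be told apart. RPM values are relative to all assigned tRNA reads of a library.

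As background, a tRNA reads codons through its anticodon, whose first base pairs with the last base of the codon. The glycine codons GGU, GGC, GGA and GGG differ only in that last base. Gly-GCC reads GGC and, by wobble, GGU, Gly-CCC reads GGG, and Gly-TCC (UCC in RNA) reads GGA and can wobble to GGG. In other codon boxes of this shape an A-starting anticodon, edited to inosine, is the common reader of the C- and U-ending codons, while in glycine the G-starting anticodon does this work. RNA polymerase III transcribes tRNA genes from promoter elements inside the gene, and mammalian genomes carry many copies of most tRNAs.

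The anticodon arm of a Gly-CCC gene is shown because the anticodon is what separates the 3 pools. It was read from the GENCODE transcript of Mettl26, whose exon 1 contains the RefSeq gene n-TGccc7 (GRCm38, chr17:25875088-25875158). The arm lies at chr17:25875113-25875129 on the plus strand, bases 26 to 42 of the 71-base gene. Capitals mark the anticodon, which sits in a loop of 7 bases closed by 5 stem pairs.
n-TGccc7 anticodon arm: caagattCCCattcttg
Which of the 4 Gly-CCC isodecoders this gene encodes is not given by the sources used here. RefSeq (GRCm38.p6) lists 28 glycine tRNA genes on 9 chromosomes, namely 14 for GCC, 6 for CCC, 7 for TCC and 1 for ACC. The isodecoders of the tables stand for 27 identical or single genes, with 13 for GCC and the RefSeq numbers for the others. By the GENCODE annotation 19 of the 28 are intergenic, 7 are intronic and 2 touch an exon. The second of these is n-TGtcc1 (chr1:171064699-171064770), which overlaps an exon of Fcgr3, an Fc receptor gene. The GCC and TCC genes are interleaved on chromosome 1, where 5 TCC and 4 GCC genes alternate along 64.8 kb at chr1:171037997-171102827.

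Glycine tRNAs were the 7th most abundant of 23 amino acid families, at 55150.2 RPM on average over the 7 libraries. Initiator methionine, selenocysteine and suppressor tRNAs count as families of their own in that ranking. The OPC libraries held 51756, 54497 and 55452 RPM of glycine tRNA in all, the OL libraries 59075 and 58752, and the Astro libraries 51859 and 54662. Both OL libraries lay above the other 5, and the OPC and Astro ranges overlapped. As a share of cytosolic tRNA this was 5.75% ± 0.169 (SD, n = 3) in OPC, 6.12% ± 0.00803 (n = 2) in OL and 5.78% ± 0.221 (n = 2) in Astro. The SD of the log2 sum over the 7 libraries was 0.08, the 6th smallest of the 23 families.

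**Figure D1:**
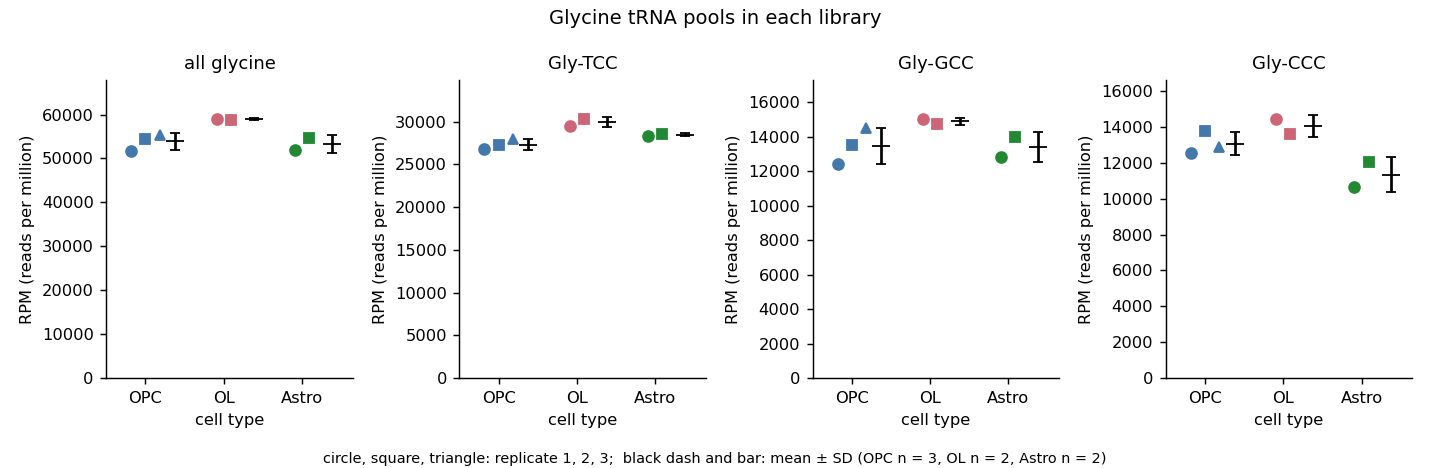
RPM (vertical axis, from 0) of all glycine tRNA and of the Gly-TCC, Gly-GCC and Gly-CCC pools in each of the 7 libraries, by cell type, with the mean ± SD at the right of each group. Gly-TCC sits between 26739.7 and 30340.7 RPM, above Gly-GCC and Gly-CCC in every library, and the Astro points are the lowest of the Gly-CCC panel.

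The order of the pools was led by Gly-TCC in all 7 libraries. It measured 26739.7, 27219 and 27988 RPM in OPC, 29524 and 30340.7 RPM in OL, and 28324 and 28579 RPM in Astro. In RPM the OL values were highest, the Astro values came next and the OPC values were lowest, without overlap. As a percent of cytosolic tRNA the OL range (3.06 to 3.16) and the Astro range (3.07 to 3.10) overlapped, and both stayed above OPC. Gly-TCC made up 49.9% to 54.6% of all glycine tRNA and ranked 12th to 14th of the 52 anticodons.

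Gly-GCC, reader of GGC and GGU, and Gly-CCC, reader of GGG, followed at similar levels. Gly-GCC measured 12417, 13495 and 14532 RPM in OPC, 15053 and 14747 RPM in OL, and 12805 and 14013 RPM in Astro. The Astro values fell inside the OPC range and both OL values lay above it. Gly-CCC measured 12558, 13758 and 12880.5 RPM in OPC, 14458 and 13589 RPM in OL, and 10641 and 12025 RPM in Astro. Here the Astro values lay below all others, and the OL and OPC ranges overlapped. The ratio of Gly-GCC to Gly-CCC was 0.989, 0.981 and 1.13 in OPC, 1.04 and 1.09 in OL, and 1.20 and 1.16 in Astro. The 2 pools therefore changed order among the OPC libraries, while Gly-GCC was the higher of the pair in both OL and both Astro libraries. Their means differed by 416 RPM in OPC and 877 RPM in OL, and by 2076 RPM in Astro, beside SDs of 216 to 1057 RPM within the groups.

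Each comparison was tested with limma on log2(RPM + 1) across all listed anticodons or isodecoders, with Benjamini-Hochberg adjustment over the whole table and a threshold of 0.01. Log2 changes are on that scale and understate changes of the lowest members. OL against OPC addressed how the pools differ after differentiation, Astro against OPC did so for the other fate of the same progenitors, and OL against Astro compared the fates. The comparisons share libraries and are not independent of each other.

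In OL against OPC, the glycine pools differed by 0.13 (SE 0.03, adjusted p = 0.107) for Gly-TCC, 0.15 (SE 0.08, adjusted p = 0.237) for Gly-GCC and 0.10 (SE 0.06, adjusted p = 0.26) for Gly-CCC, by limma. These changes sat close to the median over all 52 anticodons, which was 0.12, so relative to it they were 0.01, 0.03 and -0.01. No anticodon of the 52 passed (0%), although 13 of all and 1 of the 3 glycine pools, Gly-TCC, had an unadjusted p under 0.05. The study, with DESeq2 on read counts, called 3 anticodons at 0.01, namely Phe-GAA and Leu-UAA lower and SeC-UCA higher in OL. None of these is a glycine pool, and the 0% given here holds for limma on log2(RPM + 1). The OL and OPC libraries did not overlap for 2 of the 3 glycine pools, against 48.1% of all anticodons, and in both OL was higher, against 32.7% of all. As a percent of cytosolic tRNA the same 2 pools did not overlap, against 50% of all. Leaving out single libraries moved Gly-GCC between 0.09 (OPC replicate 1 left out) and 0.20 (OPC replicate 3 left out), and Gly-CCC between 0.06 (without OL replicate 1) and 0.15 (without OL replicate 2).

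For Astro against OPC the Gly-CCC pool had a log2 change of -0.21 (SE 0.08, adjusted p = 0.351, limma), with Astro at 11333 RPM ± 978 (SD, n = 2) and OPC at 13066 RPM ± 621 (n = 3). The Gly-CCC value was -0.12 without Astro replicate 1 and -0.30 without Astro replicate 2. Gly-TCC changed by 0.06 (SE 0.05) and Gly-GCC by -0.01 (SE 0.09), a value whose sign turned positive under other scalings. The median over all anticodons was 0.00. None of the 52 passed (0%), with 6 of all and 0 of the 3 glycine pools at an unadjusted p under 0.05. Gly-CCC, lower in Astro, and Gly-TCC, higher in Astro, had groups that did not overlap, against 32.7% of all anticodons, and the same held as a percent of cytosolic tRNA, against 34.6% of all.

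Between OL and Astro the difference was widest for Gly-CCC, at 0.31 (SE 0.08, 95% interval 0.11 to 0.51, adjusted p = 0.195, limma). OL libraries were above Astro libraries for all 3 glycine pools, against 48.1% of all 52, although the Gly-TCC difference of 0.07 became -0.02 under median-of-ratios scaling. In either direction, 57.7% of all anticodons did not overlap. As a percent of cytosolic tRNA, Gly-GCC and Gly-CCC did not overlap and Gly-TCC did, against 46.2% of all not overlapping. Relative to the median of all anticodons, 0.11, the changes were 0.20 for Gly-CCC, 0.05 for Gly-GCC and -0.03 for Gly-TCC. Again 0% of the anticodons passed, while 8 of all and 1 of the glycine pools, Gly-CCC, had an unadjusted p under 0.05.

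A list of 21 anticodons of the other amino acids read by a whole codon box (Ala, Val, Pro, Thr, Ser, Leu and Arg) gave the surroundings of the glycine pools. None of its members passed in any of the 3 comparisons by limma, with 2, 3 and 3 of the 21 at an unadjusted p under 0.05 in OL against OPC, Astro against OPC and OL against Astro. Its median log2 changes were 0.14, 0.04 and 0.13 in that order. The glycine medians were 0.13, -0.01 and 0.15.

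Below the pool level the isodecoders spanned from 28388 RPM for Gly-TCC-1 to 2.70 RPM for Gly-CCC-4, as means over the 7 libraries. Gly-TCC-1 is the whole Gly-TCC pool, and the rest of this account concerns the mixed pools. All 10 passed the filter of a mean of at least 1 RPM. Gly-CCC-4 passed it with 3 to 7 reads in each library. It stays in the counts and ranges below, but so few reads do not allow a change to be described.

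**Figure D2:**
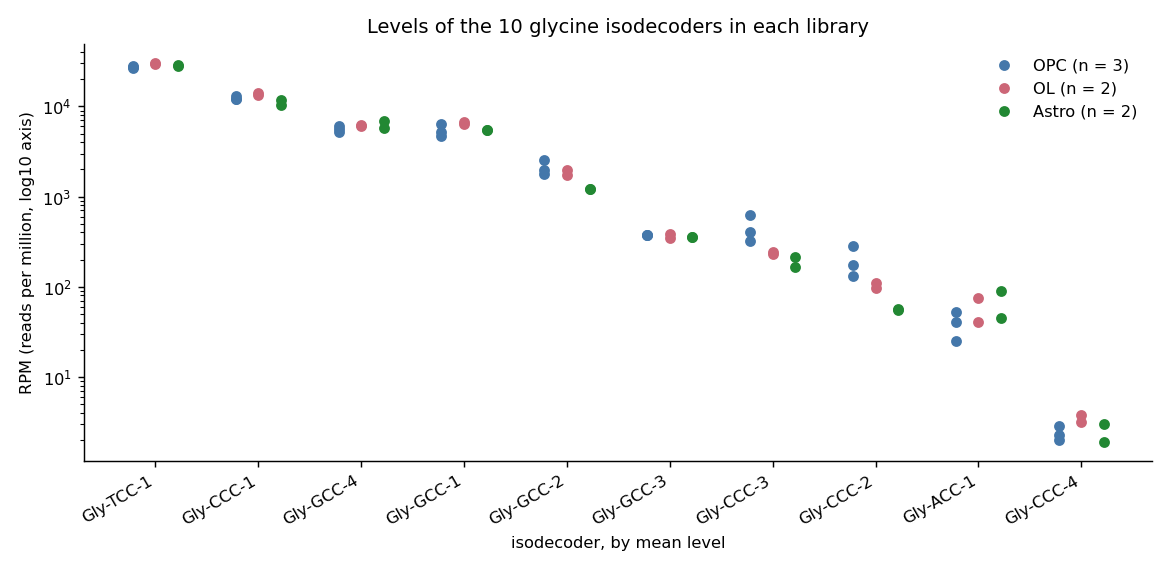
RPM on a log10 axis of each of the 10 glycine isodecoders, ordered by mean level, with 1 point per library coloured by cell type. Gly-CCC-2, Gly-CCC-3 and Gly-GCC-2 show their OPC points above their Astro points, while the points of Gly-TCC-1, Gly-GCC-3 and Gly-GCC-4 lie close together.

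The order of levels was Gly-TCC-1, Gly-CCC-1, Gly-GCC-4, Gly-GCC-1, Gly-GCC-2, Gly-GCC-3, Gly-CCC-3, Gly-CCC-2, Gly-ACC-1 and Gly-CCC-4. The neighbours Gly-GCC-4, at 5972 RPM, and Gly-GCC-1, at 5760.3 RPM, changed order between libraries, with overlapping ranges (5214 to 6929 and 4642 to 6659 RPM). In OPC replicate 1 Gly-GCC-4 was the higher, at 5605 against 4642 RPM. In OL replicate 2 Gly-GCC-1 was the higher, at 6659 against 6027 RPM. The same was true of Gly-GCC-3, at 345.8 to 385 RPM, and Gly-CCC-3, at 165 to 626 RPM, whose order changed between libraries. Gly-CCC-2 and Gly-ACC-1 overlapped as well.

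Level and gene number were not ordered alike. Gly-GCC-2 stands for 8 identical genes and averaged 1766 RPM, or 221 RPM per gene, whereas Gly-GCC-4 comes from 1 gene and averaged 5972 RPM. Gly-GCC-1, with 3 genes, gave 1920.1 RPM per gene. In the Gly-CCC pool, Gly-CCC-1 and Gly-CCC-2 stand for 2 genes each, at 12398 and 129 RPM. Gly-TCC-1 had 7 genes and 4055 RPM per gene. The genes are 71 or 72 bases long apart from ACC at 74, so these RPM values compare tRNAs of nearly the same length. How much modified bases lower the yield of each isodecoder was not measured here. Nor was the number of reads assigned to a near-identical isodecoder or lost to the mapping quality filter, on which values per gene also depend.

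**Figure D3:**
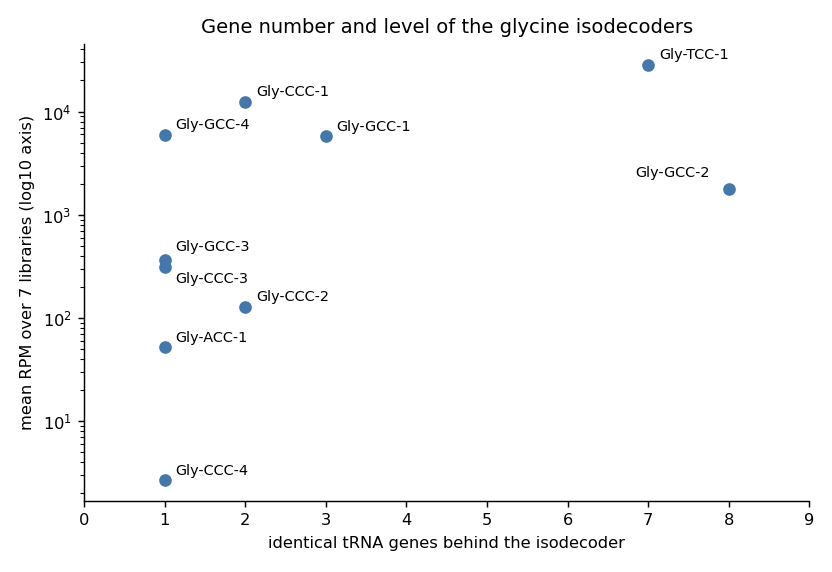
Mean RPM over the 7 libraries (log10 axis) against the number of identical genes behind each glycine isodecoder. Gly-GCC-2 with 8 genes lies below Gly-GCC-4 with 1 gene, and the 5972 and 1766 RPM of this pair run against their gene numbers.

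Gly-CCC-2, a minor tRNA of the GGG-reading pool, differed most between cell types. It measured 131, 174 and 280.4 RPM in OPC, 109 and 96.6 RPM in OL, and 55.0 and 56.3 RPM in Astro. Every OPC library was above every OL library and every OL library above every Astro library, with 129 to 682 reads behind each value. OPC replicate 3 was the highest of all, and it was also the deepest OPC library and the OPC library with the smallest share of reads outside cytosolic tRNAs, whose part in the value was not tested. The OPC mean of 195 RPM ± 77.1 (SD, n = 3) was 3.50 times the Astro mean of 55.7 RPM ± 0.932 (n = 2). The log2 change of Astro against OPC was -1.72 (SE 0.31, 95% interval -2.43 to -1.002, adjusted p = 0.0233, limma), which missed 0.01. OL against OPC gave -0.85 (SE 0.31, adjusted p = 0.103), or -0.55 without OPC replicate 3, and OL against Astro 0.87 (SE 0.32, adjusted p = 0.114).

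Gly-CCC-3, from a single gene of the same pool, measured 322, 407 and 626 RPM in OPC, 239.6 and 231 RPM in OL, and 165 and 214 RPM in Astro. All OPC values exceeded all others, OPC replicate 3 was again the highest, and the OL and Astro values lay close together. The log2 change was -1.20 (SE 0.28, adjusted p = 0.0366, limma) for Astro against OPC and -0.88 (SE 0.27, adjusted p = 0.056) for OL against OPC. Between OL and Astro it was 0.32 (95% interval -0.31 to 0.95, adjusted p = 0.54). The ratio of Gly-CCC-3 to Gly-CCC-2 was 2.20 to 2.46 in the OPC and OL libraries and 3.00 and 3.80 in Astro.

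Gly-GCC-2, the isodecoder with 8 identical genes, was the third with lower Astro values. It measured 1798, 1955 and 2533 RPM in OPC, 1946 and 1715 RPM in OL, and 1213 and 1203 RPM in Astro. The Astro libraries lay below the other 5, while OL and OPC overlapped. Its log2 change was -0.78 (SE 0.17, adjusted p = 0.0259, limma) for Astro against OPC, -0.18 (SE 0.16, adjusted p = 0.444) for OL against OPC and 0.60 (SE 0.17, adjusted p = 0.0533) for OL against Astro. Leaving out OPC replicate 3 brought the OL against OPC value to -0.04, and leaving out OPC replicate 1 brought it to -0.28. The OL against Astro value passed without OPC replicate 3, with an adjusted p = 0.00508 by limma, within a range of 0.00508 to 0.31 over all alternatives.

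The major isodecoders of the mixed pools moved less. Gly-CCC-1, which carries nearly the whole Gly-CCC pool, measured 12104, 13175 and 11971 RPM in OPC, 14105 and 13259 RPM in OL, and 10418 and 11753 RPM in Astro. In RPM both OL values were above and both Astro values below the OPC range. As a percent of cytosolic tRNA the OL range (1.38 to 1.46) and the Astro range (1.13 to 1.28) each overlapped the OPC range (1.26 to 1.42). Its log2 change was 0.14 (SE 0.08, adjusted p = 0.248, limma) for OL against OPC, -0.16 (SE 0.11, adjusted p = 0.378) for Astro against OPC and 0.31 (SE 0.11, adjusted p = 0.0972) for OL against Astro. Gly-GCC-1 measured 4642, 5141 and 6410.2 RPM in OPC, 6448 and 6659 RPM in OL, and 5499 and 5522 RPM in Astro. OPC replicate 3 stood with the OL libraries, which were higher in RPM, while as a percent of cytosolic tRNA it was at 0.675, above the lower OL library at 0.669. The log2 change of OL against OPC was 0.29 (SE 0.14, adjusted p = 0.188, limma). Without OPC replicate 3 that change was 0.42 and passed, with an adjusted p = 0.00575 by limma, within a range of 0.000112 to 0.579 over all alternatives.

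Of the others, Gly-GCC-4 and Gly-GCC-3 had log2 changes between -0.07 and 0.17 over the 3 comparisons. Gly-GCC-3 had 345.8 RPM in the lowest and 385 RPM in the highest library, a ratio of 1.11, beside 1.13 for Gly-TCC-1. As a percent of cytosolic tRNA the ratios were 1.13 for Gly-GCC-3 and 1.10 for Gly-TCC-1. Gly-ACC-1 measured 25.2 to 51.8 RPM in OPC, 40.2 and 74.8 RPM in OL, and 44.9 and 88.7 RPM in Astro, and the groups overlapped in every comparison. Its log2 change of Astro against OPC was 0.74 (SE 0.39, adjusted p = 0.301, limma), from 0.25 without Astro replicate 1 to 1.22 without Astro replicate 2. With a replicate block it was 0.96 and passed, with an adjusted p = 0.0023.

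**Figure D4:**
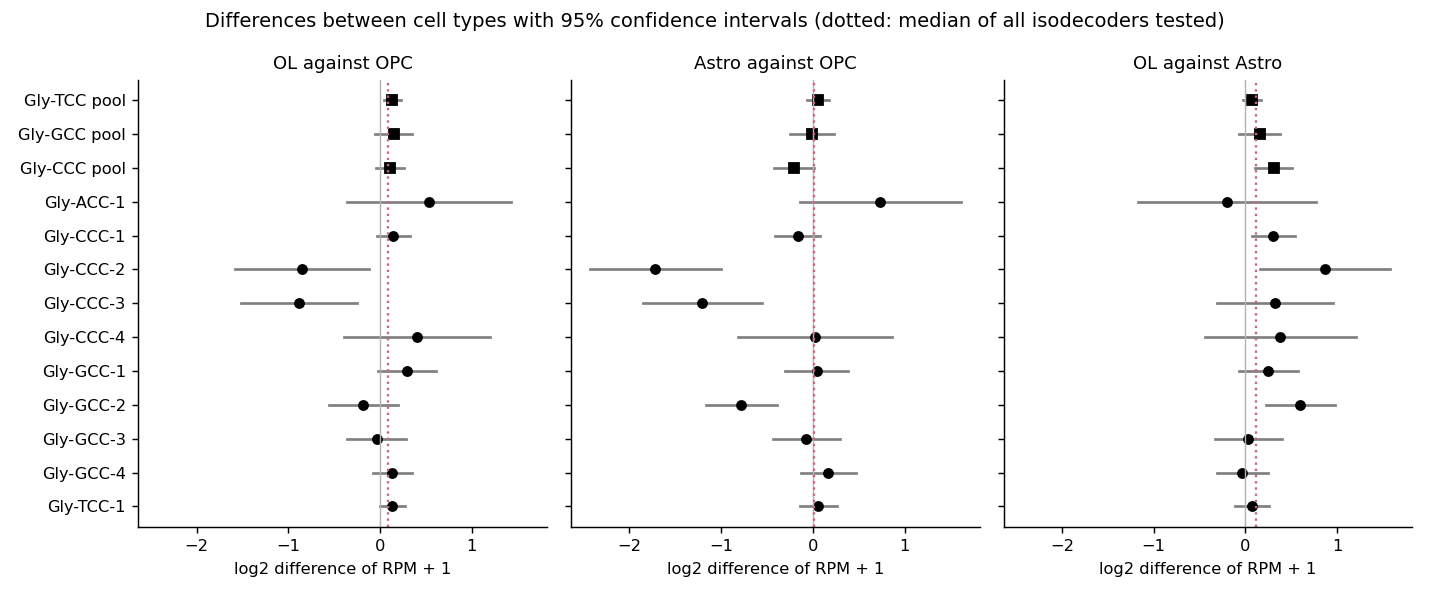
Log2 differences of RPM + 1 (horizontal axis) with 95% confidence intervals for the 3 glycine pools (squares) and 10 isodecoders (circles) in OL against OPC, Astro against OPC and OL against Astro, with the median of 192 isodecoders dotted. In Astro against OPC the intervals of Gly-CCC-2, Gly-CCC-3 and Gly-GCC-2 lie below 0, at -1.72, -1.20 and -0.78.

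Counted over the family, none of the 10 glycine isodecoders passed in any comparison by limma. For OL against OPC 5.73% of the 192 tested isodecoders passed, for Astro against OPC 0% and for OL against Astro 6.25%. At an unadjusted p under 0.05 there were 2, 3 and 3 glycine isodecoders, against 63, 40 and 52 of all 192. With the threshold at an adjusted p of 0.05, Gly-CCC-2, Gly-CCC-3 and Gly-GCC-2 passed in Astro against OPC, 3 of 10 against 7.29% of all 192, and no glycine isodecoder passed in the other comparisons. Under the 0.01 threshold the same 3 also passed without OPC replicate 3 (log2 -1.42, -0.94 and -0.63, adjusted p = 1.21e-05, 0.000617 and 0.00322), and Gly-CCC-2 and Gly-CCC-3 passed without OPC replicate 1 (-1.97 and -1.42). They passed with median-of-ratios scaling as well, where 17 of all 192 isodecoders passed. How many of all passed without single OPC libraries was not recorded. Without Astro replicate 1 their log2 changes were -1.70, -1.02 and -0.78, and without Astro replicate 2 they were -1.73, -1.39 and -0.77. Over all alternatives the adjusted p of Gly-CCC-2 ran from 1.43e-07 to 0.128, that of Gly-CCC-3 from 2.18e-05 to 0.212 and that of Gly-GCC-2 from 0.000284 to 0.145.

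OL and OPC did not overlap for 7 of the 10 isodecoders, against 53.1% of all, and OL was above OPC in 5 of them, against 30.2% of all. Astro and OPC did not overlap for 6, against 39.6%, with Astro lower in 5, against 22.9%. OL and Astro did not overlap for 7, against 60.4%, with OL higher in all 7 of these, Gly-TCC-1 among them, against 40.6%. These counts are in RPM and changed when levels were taken as a percent of cytosolic tRNA. OL and OPC then did not overlap for 4 of the 10, against 50.5% of all, with OL higher for Gly-TCC-1 and Gly-CCC-4 and lower for Gly-CCC-2 and Gly-CCC-3. Astro and OPC did not overlap for 5, against 41.1%, with Astro lower in 4. OL and Astro did not overlap for 6, against 56.8%, with OL higher in all 6. Gly-CCC-4, with 3 to 7 reads a library, is among the members with OL higher on both scales, against OPC and against Astro. The median over all 192 isodecoders was 0.09, 0.01 and 0.11 in the 3 comparisons.

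As shares of their pools, Gly-GCC-2, Gly-CCC-2 and Gly-CCC-3 were largest in OPC, whereas the share of Gly-GCC-3 overlapped between OPC and Astro and Gly-CCC-4 had its lowest mean share in OPC. Gly-GCC-2 was 14.5%, 14.5% and 17.4% of Gly-GCC in OPC, 12.9% and 11.6% in OL, and 9.48% and 8.58% in Astro, with no overlap between the 3 cell types. Gly-CCC-2 was 1.04%, 1.26% and 2.18% of Gly-CCC in OPC, 0.752% and 0.711% in OL, and 0.517% and 0.468% in Astro. Gly-CCC-3 was 2.56%, 2.96% and 4.86% in OPC and 1.55% to 1.78% in OL and Astro. Gly-CCC-1 accordingly made up 95.03% ± 1.83 (SD, n = 3) of its pool in OPC, 97.6% in both OL libraries and 97.8% ± 0.120 (n = 2) in Astro. The Gly-GCC pool was shared mainly by Gly-GCC-1, at 37.4% to 45.2%, and Gly-GCC-4, at 35.9% to 49.4%. Groups that do not overlap were common among all 184 shares. In OL against OPC, 50 of all were lower and 53 higher without overlap, beside 4 and 2 of the 8 glycine shares. These counts were 43 and 37, beside 3 and 1, in Astro against OPC. In OL against Astro they were 53 and 57, beside 3 and 2.

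**Figure D5:**
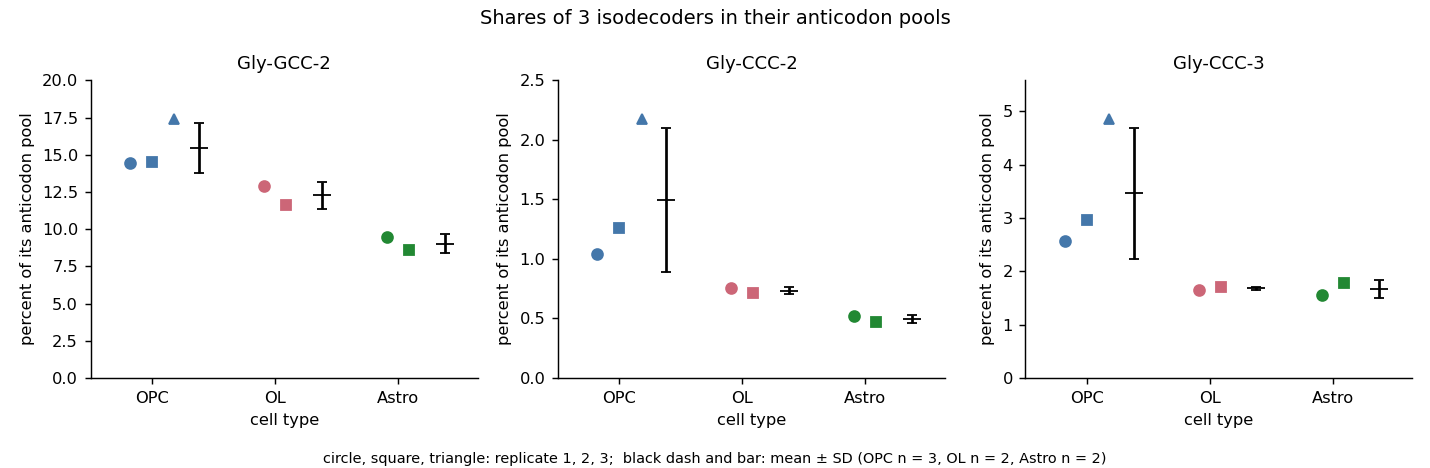
Share of its anticodon pool (percent, vertical axis from 0) taken by Gly-GCC-2, Gly-CCC-2 and Gly-CCC-3 in each library, with mean ± SD. OPC replicate 3, the triangle, is the highest point in each panel, at 17.4%, 2.18% and 4.86%, and the lower OPC points still lie above all OL and Astro points. Of all 184 shares, 50 were lower in OL than in OPC without overlap, and 43 were lower in Astro than in OPC.

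The log2 shares were tested for the 8 glycine isodecoders in mixed pools among 184 such isodecoders. None of the 8 passed, against 2.17% of all in OL against OPC, 0% in Astro against OPC and 3.8% in OL against Astro. For Gly-GCC-2 the change of the log2 share was -0.77 (SE 0.12, adjusted p = 0.0602, limma) in Astro against OPC and 0.44 (SE 0.12, adjusted p = 0.0908) in OL against Astro. At an unadjusted p under 0.05 there were 1, 3 and 1 glycine shares in OL against OPC, Astro against OPC and OL against Astro, of 57, 43 and 50 overall. Reads of near-identical isodecoders can be assigned to each other's row or be lost to the mapping quality filter, so the split within a pool is less certain than the pool.

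The anticodons whose log2(RPM + 1) ran most alike with each glycine pool across the 7 libraries were picked by Pearson's r among 49 others. For Gly-TCC these were SeC-TCA (r = 0.90), Pro-TGG (0.87) and Thr-AGT (0.85). Gly-GCC came closest to iMet-CAT (0.81), Gly-TCC (0.76) and Ser-AGA (0.72). Gly-CCC came closest to Ile-TAT (0.87), Ala-TGC (0.74) and Ala-CGC (0.72). Between the glycine pools r was 0.63 for Gly-GCC with Gly-CCC and 0.25 for Gly-TCC with Gly-CCC. These values describe 7 libraries of 3 cell types on a shared RPM scale, and the highest of 49 is high by selection.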

How the data were processed

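The authors trimmed adapters with cutadapt, aligned reads with Bowtie2 to the mature high-confidence tRNA set of GtRNAdb for mm10 plus mitochondrial tRNAs, and counted each isodecoder with featureCounts, stranded, with a mapping quality minimum. The deposited RPM values are those counts per 1000000 assigned reads, and anticodon pools are sums of isodecoders. Deposited tables of the authors' DESeq2 comparisons hold fold changes and p-values and were not used. All values came out as whole reads (tolerance 0.05 reads), which gave the read totals. No count test was run on the recovered reads. Per library, 43 to 55 values lay at 20 reads or fewer.

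Levels were tested with limma 3.58.1 in R 4.3.3 (linear models with a variance trend, none for shares) on log2(RPM + 1), over all 52 anticodons, 192 isodecoders that averaged 1 RPM or more, and the 184 shares in pools of several isodecoders. OL against OPC and Astro against OPC were fitted on their own libraries and OL against Astro on all 7. The adjusted p threshold was 0.01. Confidence intervals are at 95%. On simulated data for OL against OPC, changes of 1.5 on the log2 scale were put into the levels of anticodons (increases only) or isodecoders. They were recovered for 95% of changed anticodons and 76.9% of changed isodecoders. The share test recovered 27.4% of isodecoders whose level was changed by 1.5. Recovery of share changes of a set size was not simulated. The glycine pool changes were at most 0.31 in size, and recovery of changes that small was not simulated. Alternatives were other pseudocounts, filters, scalings, variance settings, thresholds, libraries in the fit, a replicate block and leaving out each library. All 3 pools and every glycine isodecoder were named, with the 3 anticodons most like each pool. The members and lists were chosen with earlier results of these data known, so p-values are not independent of that choice. Tests used the replicate spread only, and intervals do not cover errors shared by all libraries. Figures were drawn with matplotlib 3.10.9.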

Additional observations from a re-analysis of the deposited data

Results flagged for a closer look

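Gly-CCC-1 had its OL and Astro libraries on opposite sides of the same OPC libraries. In RPM both OL libraries lay above and both Astro libraries below the whole OPC range, while as a percent of cytosolic tRNA both groups overlapped it. The log2 difference of OL against Astro was 0.31 (adjusted p = 0.0972 by limma), which did not pass, and OL and Astro share these OPC libraries as controls.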

How the results depend on the processing

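Of 138 recomputed counts of glycine members past the threshold, 129 were equal to the reported count of 0, and the 3 pools and the 8 shares stayed at 0 in each alternative. The isodecoder counts moved in 9 cases. In Astro against OPC, 3 of 10 passed with median-of-ratios scaling, beside 17 of all 192 isodecoders. With the threshold at 0.05, 3 passed, beside 7.29% of all. With all 7 libraries in the fit, 2 passed (Gly-CCC-2 and Gly-GCC-2). Leaving out an OPC library gave 0 to 3, with 2 without OPC replicate 1 and 3 without OPC replicate 3. How many of all isodecoders passed was not recorded for fits without a library or with all 7. Leaving out a library gave 0 to 1 in OL against OPC (Gly-GCC-1) and 0 to 1 in OL against Astro (Gly-GCC-2, adjusted p = 0.00508), with the 1 reached without OPC replicate 3 in both. In OL against Astro the OPC libraries enter the fit only through the estimate of spread. The Gly-GCC-2 difference was 0.60 with and without OPC replicate 3. Why the other counts moved was not tested. The replicate block gave 1 in OL against OPC and 4 in Astro against OPC (with Gly-ACC-1), and over all isodecoders 45 against 11, 24 against 0 and 10 against 12 in OL against OPC, Astro against OPC and OL against Astro. OPC replicate 3 has no partner and does not enter the estimates of those fits. The study states that the OLs came from 2 of the OPC replicates but does not name them. The numbers were therefore not taken to pair libraries, and the main fits ignore that pairing. Deviations of same-numbered libraries correlated at -0.29 to 0.34. This range cannot decide the pairing, because in a group of 2 libraries the deviations are mirror images of each other. In all, 28 of 969 recomputed log2 changes of single members changed sign, none of which passed before or after, and the cause was not tested. The Gly-GCC pool in Astro against OPC became 0.018 when rescaled to cytosolic tRNA, 0.026 by median-of-ratios and 0.049 with the replicate block, and -0.071 to 0.059 without single libraries. By median-of-ratios, Gly-TCC and Gly-TCC-1 in OL against Astro both became -0.021 and Gly-GCC-3 became -0.062, or -0.030 when rescaled. With a pseudocount of 10, the share changes of Gly-CCC-3 and Gly-CCC-4 in OL against Astro became -0.00083 and -0.20. Without single libraries the changes ran from -0.12 to 0.041 for Gly-GCC-3 and from -0.12 to 0.045 for the share of Gly-GCC-4 in OL against OPC. In Astro against OPC they ran from -0.059 to 0.17 for Gly-GCC-1, -0.21 to 0.25 for Gly-CCC-4, -0.013 to 0.12 for the share of Gly-GCC-1 and -0.087 to 0.55 for the share of Gly-CCC-4. In OL against Astro they ran from -0.17 to 0.10 for Gly-GCC-4, -0.046 to 0.11 for Gly-GCC-3, -0.68 to 0.28 for Gly-ACC-1, -0.087 to 0.11 for the share of Gly-CCC-3 and -0.24 to 0.39 for the share of Gly-CCC-4. A group left with 1 library is assumed to vary like the others. Depth limits Gly-CCC-4, with 3 to 7 reads a library.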
